A study of Drosophila melanogaster with 6 samples.

Results

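The 41 genes described here start, carry out and complete the cell cycle of *Drosophila*. By role they are 10 genes of G1/S control (*CycD*, *Cdk4*, *CycE*, *Cdk2*, *dap*, *E2f1*, *E2f2*, *Dp*, *Rbf* and *Rbf2*), 12 of origin licensing (*Orc1*, *Orc2*, *Orc5*, *Orc6*, *dup*, *geminin*, *Mcm2*, *Mcm3*, *dpa*, *Mcm5*, *Mcm6* and *Mcm7*), 3 of the replication fork and its nucleotide supply (*PCNA*, *RnrS* and *RnrL*), 7 of the G2/M switch and mitotic exit (*CycA*, *CycB*, *CycB3*, *Cdk1*, *stg*, *fzr* and *fzy*) and 9 of the mitotic machinery (*polo*, *aurA*, *aurB*, *BubR1*, *Bub1*, *pav*, *feo*, *Klp61F* and *cid*). They were taken by FlyBase symbol and not by their measured values, though earlier results of these data were known. All 41 were found among the 16455 genes listed for each library.

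RNA was sequenced from pooled wing imaginal discs of larvae in the third instar, the larval epithelia that form the adult wings, after 16 h of induced cell death. All 6 libraries carried salE/Pv-LHG:tub-Gal80TS and lexO-rpr: the *sal* E/Pv enhancer drives the LHG activator in the central part of the disc only, Gal80TS keeps it inactive at low temperature, and at high temperature LHG switches on the pro-apoptotic gene *rpr* there. The 3 libraries labelled mutant carried in addition the CR40469-KO allele, and the 3 labelled control did not. In this allele the locus of the lncRNA *CR40469* is replaced by an mCherry cassette, and the study describes the mutants as homozygous. The study calls the replicates biological. The labels do not say how far they were collected separately, p-values measure the spread between these libraries, and no undamaged discs were analysed here.

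In G1, Cyclin D with Cdk4 and Cyclin E with Cdk2 inactivate the retinoblastoma proteins, which frees E2F with its partner Dp to transcribe S phase genes such as *PCNA*, the *Mcm* genes and the ribonucleotide reductase subunits. Origins are licensed when the origin recognition complex and Dup load the Mcm helicase, and the phosphatase String then removes the block on Cdk1 that holds cells in G2. In damaged wing discs surviving cells divide to replace lost tissue, and cells near the wound are known to pause in G2.

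Levels are given in TPM, a share of all transcripts of a library that is corrected for transcript length and keeps no record of read depth, so the number of reads behind a value cannot be read from these tables. The study lists mapped reads per library, which were not used here. Of the listed genes, 8051 reached at least 1 TPM in at least 1 library and were tested together with limma on log2(TPM + 1), two-sided, and all 41 cell cycle genes were among them. To be called, a gene needed a fold change over 1.7 and a p under 0.05 after Benjamini-Hochberg adjustment. A difference on this scale slightly understates the change of the lowest genes.

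The deleted gene did not follow the labels: *CR40469* was listed at 46.44 to 99.61 TPM under the control label and at 293.78 to 535.93 TPM under the mutant label (log2 difference 2.43, limma adjusted p = 0.0280, and 8.45e-04 to 0.355 over the alternatives tried). Its near-identical copy *CR34335* can share reads with it, and was at 2442.97 to 3521.64 TPM under the control label and 1902.09 to 1938.29 TPM under the mutant label. For an earlier data set of regenerating discs, the study reports that the mismatches between both genes were enough to place reads correctly. Whether reads were shared here or labels exchanged was not tested. The cell death gene *rpr* was present throughout, at 122.67 to 143.52 and 144.06 to 189.81 TPM (log2 difference 0.31, limma adjusted p = 0.818). Directions below are those of the libraries as labelled. All 12 wing disc markers were measured, and their summed level was 625.68 to 1048.73 TPM under the control label and 773.94 to 1048.16 TPM under the mutant label. In such pooled tissue, fewer cells of a type and less RNA per cell cannot be told apart.

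The cell cycle genes were well expressed in these damaged discs. The median of their means over 6 libraries was 67.0 TPM, against 27.9 TPM for all tested genes, and single values ran from 7.67 TPM (*Orc1*) to 440.58 TPM (*PCNA*). The highest means were those of *PCNA*, the sliding clamp of DNA polymerase (413 TPM), *Cdk1*, the kinase that starts mitosis (311 TPM), *polo*, a mitotic kinase (241 TPM), *RnrS*, the small subunit of ribonucleotide reductase (211 TPM), and *geminin*, the inhibitor of relicensing (210 TPM). *RnrS* and *geminin* did not differ beyond their spread. At the other end stood *Orc1*, the largest subunit of the origin recognition complex (10.9 TPM), *cid*, the centromeric histone (11.5 TPM), and *Bub1*, a spindle checkpoint kinase (13.4 TPM). All 41 means were above 10 TPM and 10 were above 100 TPM.

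**Figure D1:**
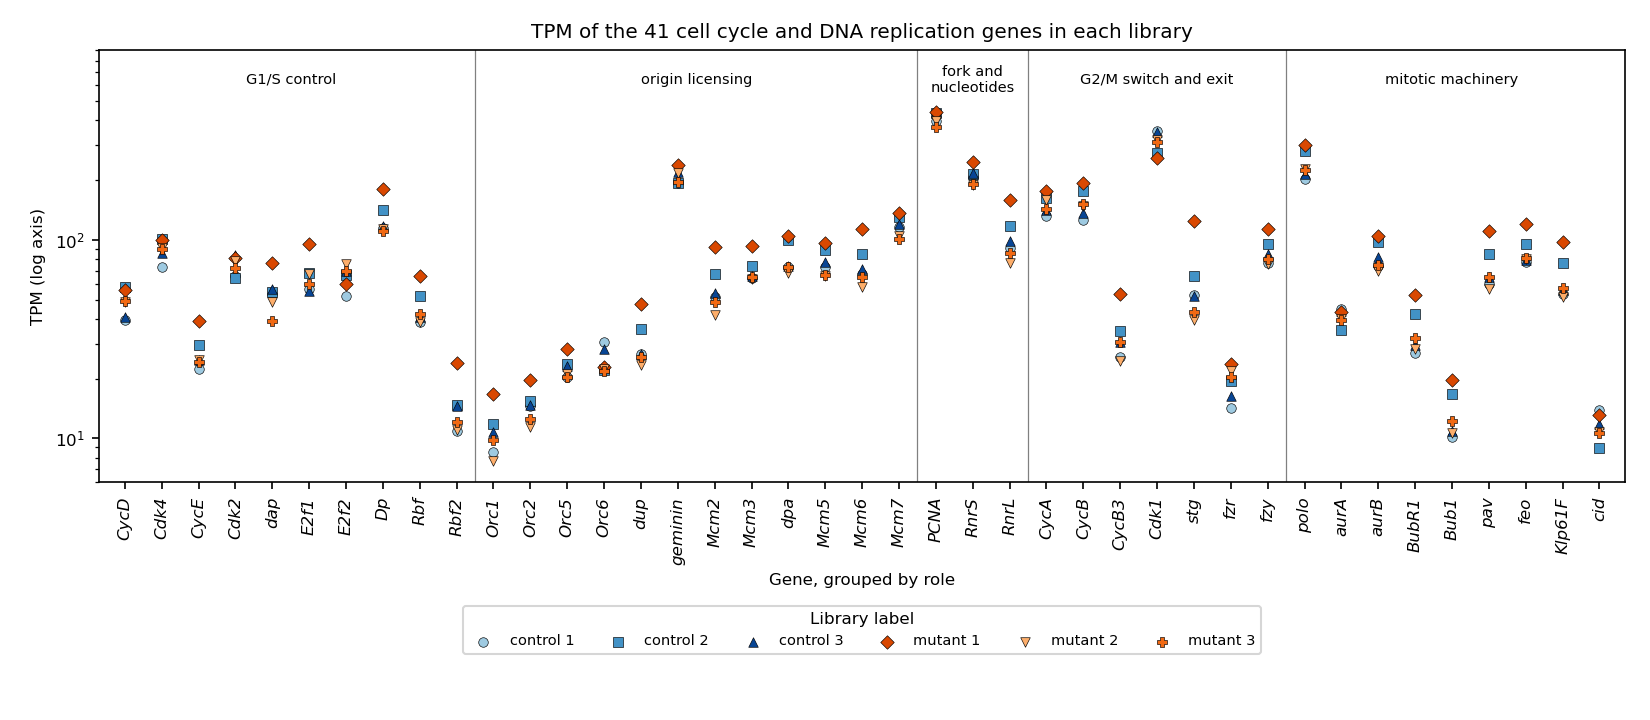
TPM on a log axis of each of the 41 genes, grouped by role, with 1 point for each of the 3 libraries labelled control (blue) and the 3 labelled mutant (orange). The library labelled mutant replicate 1 (dark orange diamonds) was the highest point for 32 of the 41 genes.

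None of the 41 genes was called between the labels in limma (0 of 41, against 18 of 8051 or 0.224% of all tested genes). The differences ran from -0.25 on the log2 scale (*Orc6*) to 0.39 (*fzr*), with a median of 0.08. Of the 41, 29 were above 0 and 12 below (29.3% below, against 25.1% of all tested genes). The median of all tested genes was itself 0.13, and 14 of the 41 lay above it. When each library was instead scaled by its median ratio over genes, the median of all tested genes moved to 0.0014, that of the 41 genes to -0.05, and 11 genes were above 0 and 30 below, so the sign of these small differences depends on the scaling.

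No point estimate reached 1.7-fold. The 95% confidence interval lay wholly within 1.7-fold in either direction for 37 of the 41 genes, against 78.4% of all tested genes. The exceptions were *stg*, *CycB3*, *Rbf2* and, by a narrow margin, *BubR1*. Without mutant replicate 2, and equally without mutant replicate 3, this number was 24 (58.5%, against 60.3% and 58.1% of all tested genes), and over all fits that left out 1 library it ran from 24 to 40.

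At an unadjusted p under 0.05 stood 1 gene, *fzr*, against 4.82% of all tested genes, and the same gene was the only one whose libraries did not overlap between the labels, against 10.5% of all tested genes. Both shares for the 41 genes were thus under the background. Leaving out 1 library moved the first count to 0 (without control replicate 1, control replicate 3, mutant replicate 2 or mutant replicate 3) or to 3 (without control replicate 2, 7.32% against 12.3% of all tested genes). It moved the second count to 11 without control replicate 2 (26.8%, against 50.2% of all tested genes) and to 3 without control replicate 3 (7.32%, against 16.5%), both under the background, and to 13 without mutant replicate 1 (31.7%, against 20.0%).

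**Figure D2:**
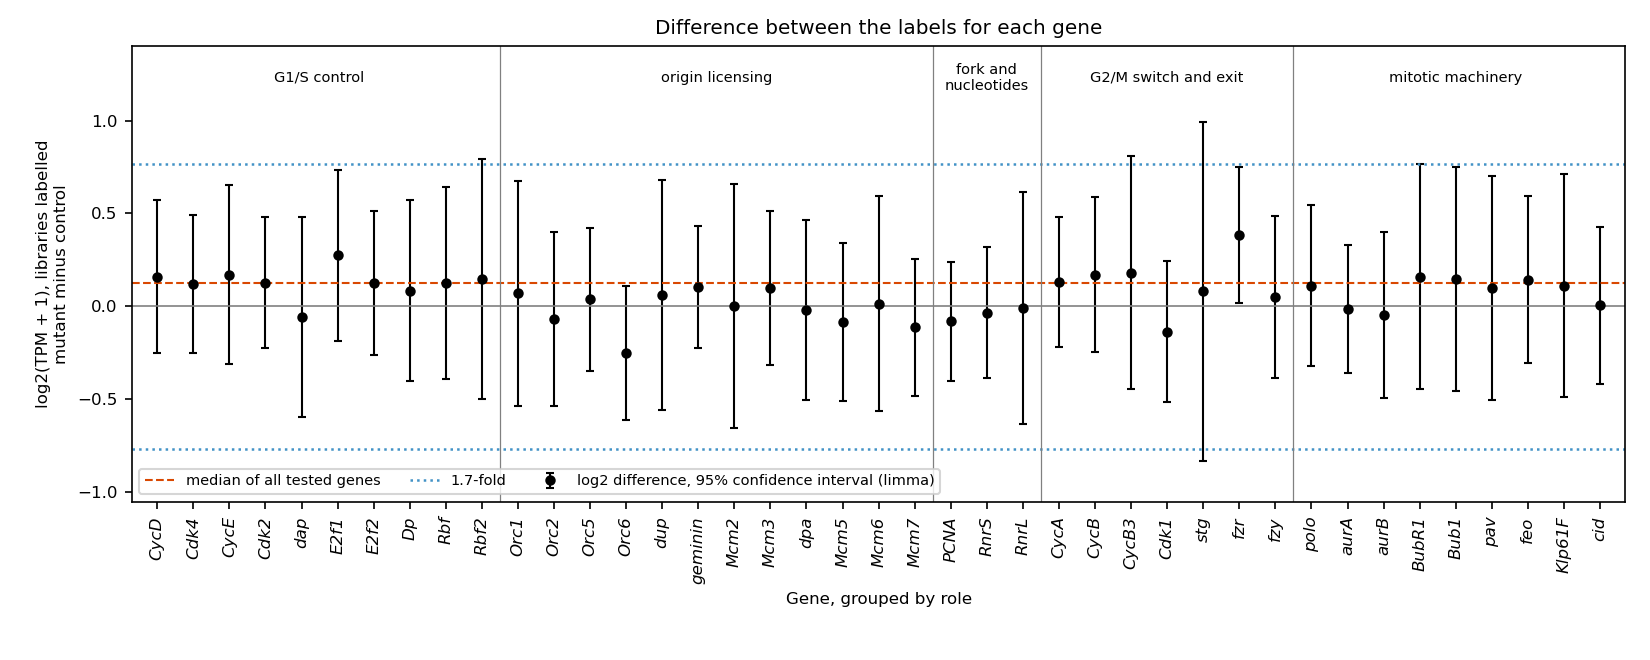
Difference of each gene in log2(TPM + 1), libraries labelled mutant minus control, with its 95% confidence interval from limma (3 libraries per label). All 41 points lie between the 1.7-fold lines (dotted), and most lie at or under the median of all tested genes (dashed).

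The gene *fzr* (FBgn0262699, chromosome X, 4667290 to 4679537 on dm6, minus strand) encodes the Cdh1 activator of the anaphase-promoting complex, which holds mitotic cyclins low in G1. Control replicates 1, 2 and 3 held it at 14.25, 19.55 and 16.28 TPM, mutant replicates 1, 2 and 3 at 23.75, 21.91 and 20.28 TPM. No library under the mutant label fell below a control one, with the smallest gap between mutant replicate 3 and control replicate 2. The means were 16.7 ± 2.67 and 22.0 ± 1.74 TPM (SD, n = 3 per label), a log2 difference of 0.39 (95% interval 0.02 to 0.75, limma unadjusted p = 0.0408, adjusted p = 0.818). An exact permutation test of 3 libraries against 3 cannot give a p under 0.1.

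Its counterpart *fzy*, the Cdc20 activator that works earlier in mitosis, showed no such separation, at 76.12, 95.84 and 84.66 TPM under the control label and 113.3, 75.47 and 80.2 TPM under the mutant label. Its log2 difference was 0.05 (95% interval -0.39 to 0.49). The ratio of *fzr* to *fzy* was 0.187, 0.204 and 0.192 in the control libraries and 0.210, 0.290 and 0.253 in the mutant libraries. This ratio, chosen after its values were seen, was lowest under the control label in all 3 replicates.

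Among the G1/S genes the median log2 difference was 0.13, close to that of all tested genes, and 9 of the 10 differences were above 0. Of all 8051 tested genes, 6027 were above 0. With transcript length corrected, as described below, 3 of the 10 were above 0. *CycD*, the G1 cyclin, was at 39.67, 57.97 and 41.07 TPM in control replicates 1 to 3 and 56.03, 48.42 and 48.99 TPM in mutant replicates 1 to 3. Its partner kinase *Cdk4* ran from 72.59 to 101.08 TPM under the control label and from 89.68 to 100.25 TPM under the mutant label. For both genes control replicate 2 was the highest of the 6 libraries and control replicate 1 the lowest, so the labels overlapped.

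*CycE*, the cyclin that triggers S phase, stood out in 1 library: 22.4, 29.46 and 24.84 TPM in the control libraries, then 38.99, 24.92 and 24.38 TPM in the mutant libraries. The same held for *dap*, the inhibitor of Cyclin E and Cdk2, at 53.46, 54.71 and 56.67 TPM against 76.69, 48.78 and 39.19 TPM. The control values of *dap* spanned a narrow range, and those labelled mutant lay on both sides of it. On the log2 scale, mutant replicate 1 exceeded the mean of the other 5 libraries by 0.62 for *CycE* and 0.60 for *dap*. With transcript length corrected, as described below, these values were 0.16 and 0.30. *Cdk2* itself was between 64.04 and 83.4 TPM in the controls and between 72.43 and 80.9 TPM in the mutant libraries, but 43.9% of its exon bases are shared with *CG17267* on the opposite strand, and whether counting used strand is not given in the sources used here.

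*E2f1*, the activating E2F, had the second largest difference of all 41 genes (log2 0.28, 95% interval -0.18 to 0.74). It was at 56.54, 68.2 and 55.33 TPM in control replicates 1 to 3 and at 95.46, 66.91 and 59.69 TPM in mutant replicates 1 to 3. The difference came with mutant replicate 1 alone, since the other mutant libraries lay within the control range, and without that library it was 0.08. *E2f1* has the longest transcript of the 41 genes (4778 bp). After the correction for transcript length described below, its log2 difference was 0.05. That correction moved the excess of mutant replicate 1 over the mean of the other 5 libraries from 0.64 to 0.10 on the log2 scale. *E2f2*, the repressive E2F, did not share the peak in mutant replicate 1, which was at 59.9 TPM, below 4 of the other 5 libraries (52.17 to 75.95 TPM over all 6). However, 19.9% of the exon bases of *E2f2* are shared with *Mpp6* on the opposite strand. The partner *Dp* was at 115.05, 140.89 and 117.13 TPM against 179.54, 113.52 and 111.2 TPM, again with only mutant replicate 1 above the control libraries.

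The retinoblastoma family genes, whose proteins restrain E2F, followed the same library. *Rbf* was at 38.37 to 52.24 TPM in the controls and at 65.37, 38.58 and 42.52 TPM in mutant replicates 1 to 3. *Rbf2* was at 10.87 to 14.8 TPM in the controls and at 23.96, 11.03 and 12.11 TPM in mutant replicates 1 to 3. Their log2 differences of 0.13 and 0.15 were smaller than the spread among the libraries labelled mutant. Mutant replicate 1 exceeded the mean of the other 5 libraries by 0.62 for *Rbf* and 0.88 for *Rbf2* (log2). With transcript length corrected, as described below, these values were 0.19 and 0.56.

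Origin licensing genes had a median log2 difference of 0.01, and none of the 12 was above the median of all tested genes. *Mcm2*, a subunit of the replicative helicase, was at 51.51, 67.2 and 53.82 TPM in control replicates 1 to 3 and at 92.24, 41.61 and 48.82 TPM in mutant replicates 1 to 3. The means of 57.5 ± 8.47 and 60.9 ± 27.4 TPM (SD, n = 3 per label) barely differed (log2 0.0039), although 1 mutant library lay far above and the others below every control. *Mcm6* had the same shape, at 67.64, 85.32 and 71.29 TPM against 112.75, 57.92 and 64.75 TPM.

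The other helicase subunits varied less. *Mcm7* was at 115.77, 130.65 and 120.74 TPM in the control libraries and 136.27, 104.15 and 101.56 TPM in the mutant libraries (log2 difference -0.11, 95% interval -0.48 to 0.26), but 81.7% of its exon bases lie opposite the antisense RNA *CR45871*. *Mcm5* was at 73.22 to 89.07 TPM under the control label and 65.79 to 95.96 TPM under the mutant label. For *Mcm3* the ranges were 64.01 to 73.71 and 63.48 to 93 TPM, and for *dpa*, the Mcm4 subunit, 72.64 to 99.93 and 67.72 to 104.22 TPM. Each of the 6 helicase genes was highest in mutant replicate 1, and their means over 6 libraries lay between 59.2 TPM (*Mcm2*) and 118 TPM (*Mcm7*).

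The origin recognition genes were the least abundant of the licensing genes, with means from 10.9 TPM (*Orc1*) to 24.6 TPM (*Orc6*). *Orc6* had the largest decrease of the 41 genes: 30.58, 22.12 and 28.07 TPM in control replicates 1 to 3 and 22.81, 22.26 and 21.87 TPM in mutant replicates 1 to 3. The mutant values were nearly equal, and control replicate 2 lay among them. Its log2 difference was -0.25 (95% interval -0.61 to 0.11, limma unadjusted p = 0.151, adjusted p = 0.818). *Orc2* ran from 14.6 to 15.49 TPM in the controls, with 19.73, 11.46 and 12.59 TPM in mutant replicates 1 to 3, which enclosed the control range. *Orc1* and *Orc5* had mutant replicate 1 as their highest library.

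*dup*, the Cdt1 loader of the helicase, was at 26.47, 35.39 and 26.69 TPM in the controls and at 47.48, 23.31 and 25.72 TPM in the mutant libraries. Its inhibitor *geminin* varied little, from 192.94 to 219.16 TPM and from 196.72 to 239.11 TPM under the labels. *geminin* exceeded *dup* in every library, with a ratio of 5.46 to 8.21 in the controls and 5.04 to 9.28 in the mutant libraries.

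At the fork, *PCNA* was at 396.19, 436.81 and 440.58 TPM in the control libraries and 440.19, 395.33 and 370.29 TPM in the mutant libraries (log2 difference -0.08, 95% interval -0.40 to 0.24). Of the 10 genes with a mean above 100 TPM it had the smallest ratio of highest to lowest library, and mutant replicate 1 lay within the control range, just under control replicate 3. *RnrS* was at 206.13 to 217.79 TPM in the controls and 246.87, 189.97 and 191.66 TPM in mutant replicates 1 to 3. *RnrL*, the large subunit of the same enzyme, was at 91.07, 116.8 and 99.11 TPM against 159.03, 76.29 and 85.71 TPM, a much wider spread than that of its partner. For all 3 genes mutant replicates 2 and 3 lay below every control library, for *PCNA* by a narrow margin (395.33 against 396.19 TPM). With mutant replicate 1 left out, 7.05% of all tested genes were lower without overlap. With all 6 libraries, none of the 3 fork genes separated by label.

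The mitotic cyclins were all highest in mutant replicate 1. *CycA* was at 131.56, 162.71 and 141.83 TPM in control replicates 1 to 3 and 175.93, 159.13 and 142.85 TPM in mutant replicates 1 to 3. For *CycB* the values were 126.36, 175.57 and 137.16 TPM, then 193.19, 148.19 and 152.17 TPM. Its ratio to *CycA* stayed between 0.931 and 1.10 in all 6 libraries. *CycB3* was lower and more variable, at 25.67, 34.81 and 30.71 TPM against 53.29, 24.67 and 30.7 TPM. Their log2 differences were 0.13, 0.17 and 0.18, with intervals that included 0.

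Their kinase *Cdk1* went the other way. It was at 354.62, 273.43 and 351.31 TPM in the controls and at 258.79, 317.31 and 312.56 TPM in the mutant libraries, so mutant replicate 1 was its lowest library and control replicate 2 the next. The log2 difference was -0.14 (95% interval -0.52 to 0.24).

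The largest spread belonged to *stg* (FBgn0003525, chromosome 3R, 29251826 to 29255800 on dm6, minus strand), the Cdc25 phosphatase String. Control replicates 1 to 3 held it at 52.75, 65.37 and 52.23 TPM, mutant replicates 1 to 3 at 124.48, 39.63 and 43.11 TPM. Mutant replicate 1 was at 2.46 times the mean of the other 5 libraries, and mutant replicates 2 and 3 were below every control. The means were 56.8 ± 7.44 and 69.1 ± 48.0 TPM (SD, n = 3 per label). The log2 difference was 0.08, with the widest interval of the set (-0.83 to 0.99, limma adjusted p = 0.935). Without mutant replicate 1 the difference was -0.44 (standard error 0.16, limma unadjusted p = 0.0254, adjusted p = 0.588).

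**Figure D3:**
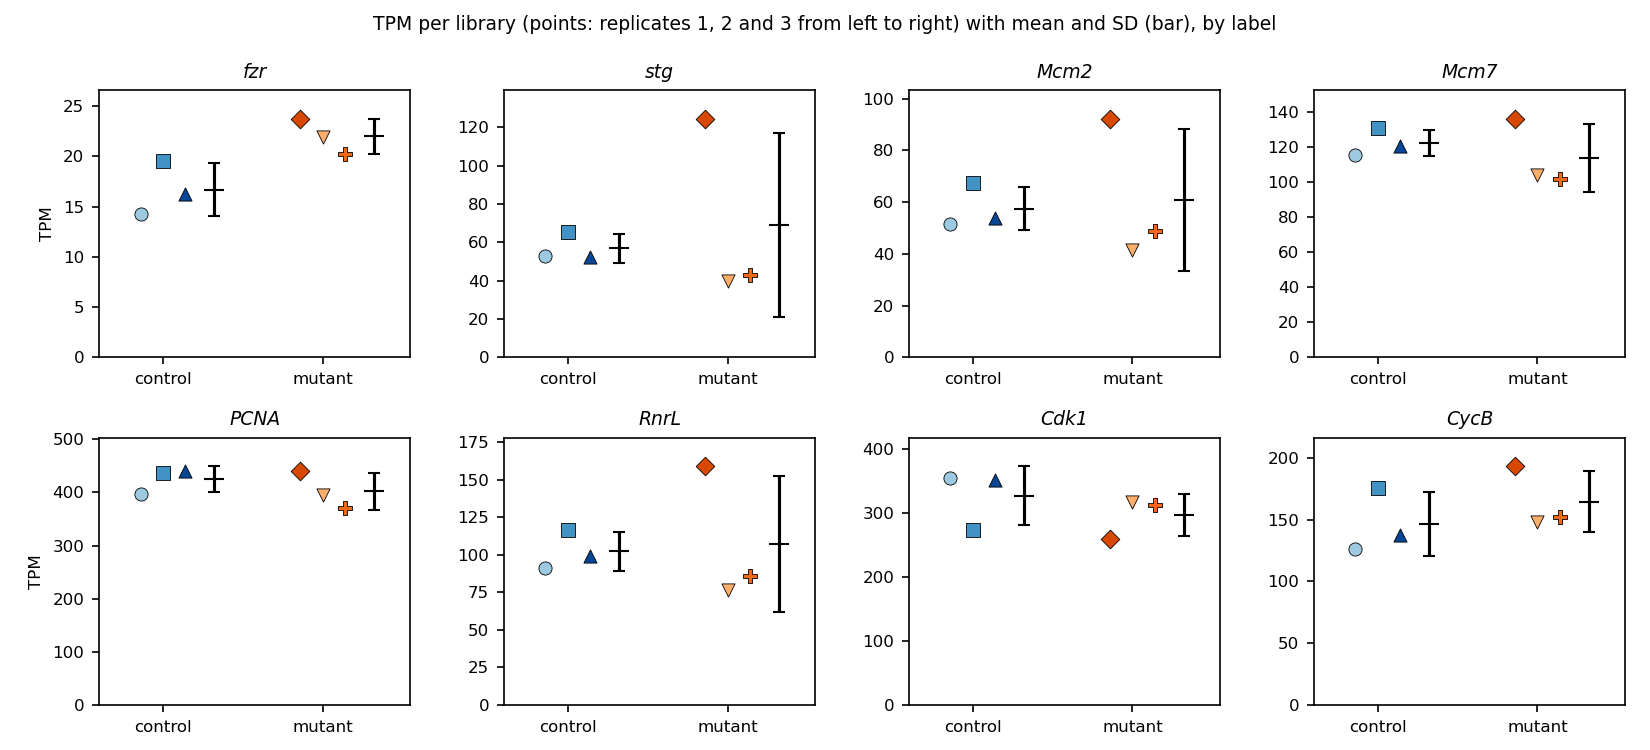
TPM per library for *fzr*, *stg*, *Mcm2*, *Mcm7*, *PCNA*, *RnrL*, *Cdk1* and *CycB*, with the mean and SD of the 3 libraries of each label as bars. The labels separate for *fzr* only, and for *stg*, *Mcm2* and *RnrL* mutant replicate 1 lies far above the other mutant libraries.

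Genes of the mitotic machinery had a median log2 difference of 0.11. *polo* was at 202.42, 280.08 and 213.42 TPM in the control libraries and at 300.88, 226.5 and 224.14 TPM in the mutant libraries. The kinase of the chromosomal passenger complex, *aurB*, was at 74.23 to 98.03 TPM and 69.68 to 104.54 TPM under the labels. *aurA*, the centrosomal kinase, was at 45.05, 35.15 and 43.78 TPM, then 43.15, 39.78 and 39.3 TPM, with control replicate 1 highest.

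The spindle checkpoint genes *BubR1* and *Bub1* moved in step over the libraries. *BubR1* was at 27.01, 42.45 and 29.41 TPM in control replicates 1 to 3 and 52.47, 28.3 and 32 TPM in mutant replicates 1 to 3. *Bub1* was at 10.11, 16.78 and 10.87 TPM against 19.66, 10.67 and 12.21 TPM. Their ratio stayed between 2.53 and 2.71 in all 6 libraries, while each gene alone differed by nearly the same factor between its highest and lowest library. Both have long transcripts (4626 and 4091 bp). Over all tested genes of 4 kb or more, the median deviation was also highest in mutant replicate 1 (0.52), then in control replicate 2 (0.23). Whether other pairs of such length keep as steady a ratio was not tested.

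Of the cytokinesis and spindle genes, *pav*, a kinesin of the central spindle, was at 59.88, 85.06 and 64.66 TPM against 110.64, 56.6 and 64.82 TPM. *feo*, which bundles the microtubules of the central spindle, was at 76.89 to 95.3 TPM in the controls and 80.4 to 120.66 TPM in the mutant libraries. The spindle motor *Klp61F* was at 53.36 to 76.87 TPM and 51.71 to 97.79 TPM, and 11.0% of its exon bases are shared with *galene* on the opposite strand. *cid* was at 13.92, 8.95 and 11.84 TPM in the controls and 13.08, 10.77 and 10.64 TPM in the mutant libraries. Its means were 11.6 and 11.5 TPM (log2 difference 0.0057, 95% interval -0.42 to 0.43).

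The pattern shared by most of these genes was one of libraries rather than labels. Mutant replicate 1 was the highest library for 32 of the 41 genes (78.0%), against 51.9% of all tested genes, and in 28 of the 41 (68.3%) control replicate 2 came next, against 33.1%. Summed over the 41 genes, the level was 3302.72, 3831.94 and 3538.61 TPM in control replicates 1 to 3 and 4437.22, 3322.46 and 3302.05 TPM in mutant replicates 1 to 3. The sum of mutant replicate 1 was above all others, and those of mutant replicates 2 and 3 were level with the lowest control. As these counts rest on 1 library, they are a description with no test.

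The deviation of a gene in a library from its own mean over 6 libraries put the roles side by side. In mutant replicate 1 its median was 0.38 on the log2 scale over the 41 genes, against 0.19 over all tested genes. By role it was 0.50 for G1/S control, 0.38 for origin licensing, 0.23 for the fork genes, 0.33 for the G2/M switch and 0.46 for the mitotic machinery. After the correction for transcript length described below, these medians were 0.11, 0.20, 0.12, 0.07 and 0.22 in the same order, so the order of the roles depended on that correction. Replicates labelled mutant were more spread for these genes than for others: the median SD on the log2 scale was 0.31, against 0.19 for all tested genes, whereas it was 0.20 and 0.21 among the controls. Over mutant replicates 2 and 3 alone, the median SD was 0.076 for the 41 genes and 0.065 for all tested genes.

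**Figure D4:**
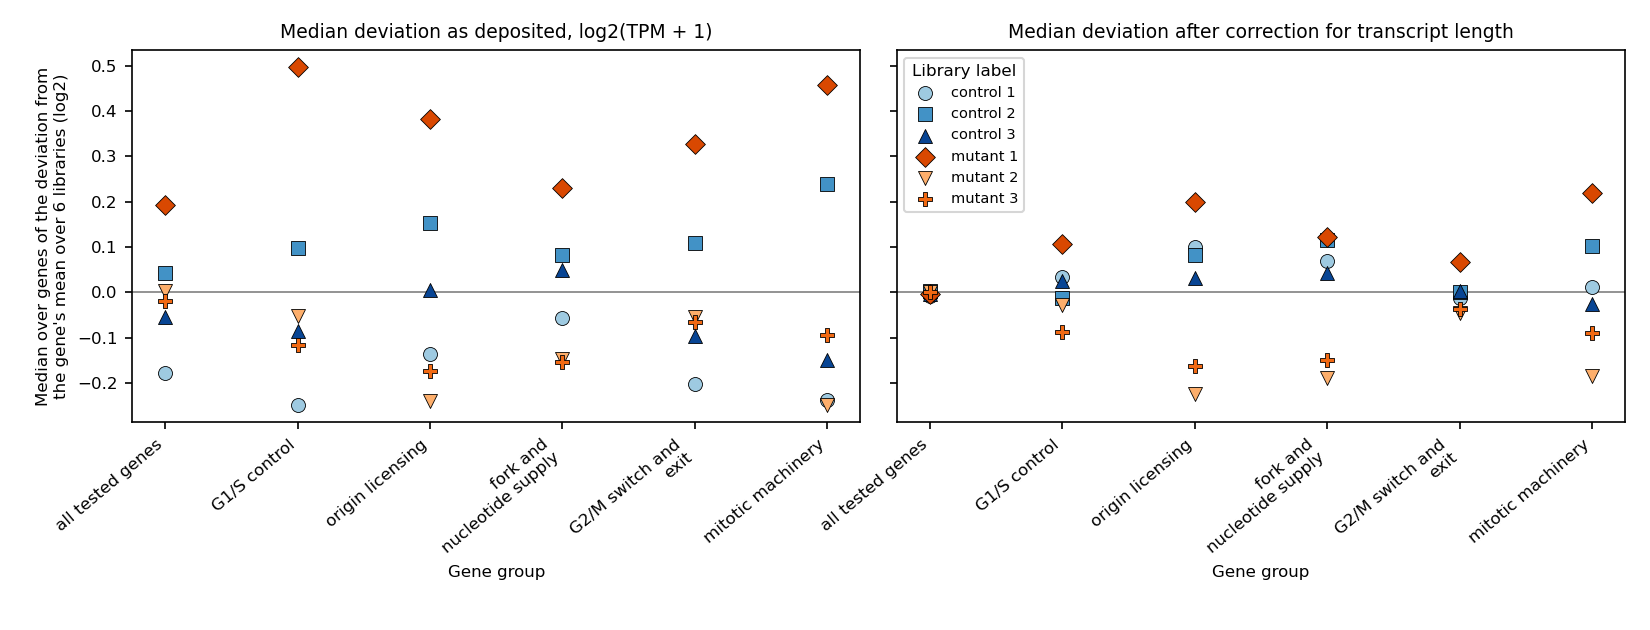
Median deviation of the genes of each role from their mean over 6 libraries, in log2 units, by library, as deposited (left) and after a correction for transcript length (right). Mutant replicate 1 is the highest library in all 5 roles in both panels, and mutant replicates 2 and 3 lie below 0 in all of them.

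Transcript length moved with the libraries. Over all tested genes, the median deviation of mutant replicate 1 was -0.13 for genes whose longest annotated transcript is under 1 kb, 0.07 at 1 to 2 kb, 0.28 at 2 to 4 kb and 0.52 at 4 kb or more. Control replicate 2 went the same way, from -0.17 to 0.23, and control replicates 1 and 3 the opposite way, from 0.13 to -0.36 and from 0.10 to -0.25. The 41 genes are longer than most, with a median of 2577 bp against 2029 bp. Across them (genes are not independent replicates), the Spearman correlation of the deviation with length was 0.72 in mutant replicate 1, 0.61 in control replicate 2, -0.60 in control replicate 1 and -0.75 in control replicate 3.

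*Orc6* (972 bp), *Cdk1* (1082 bp) and *E2f2* (2002 bp) were the only genes of the 41 that were lower in mutant replicate 1 than the mean of the other 5 libraries on the log2 scale, and all have transcripts under the median length of the set. Among the 27 members of 2 to 4 kb, 23 were highest in mutant replicate 1 (85.2%), against 66.0% of all tested genes of that length. All 3 members of 4 kb or more were highest there too, against 82.7%, and 6 of the 10 members of 1 to 2 kb (60.0%), against 39.1%. What produced the length trend was not tested.

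**Figure D5:**
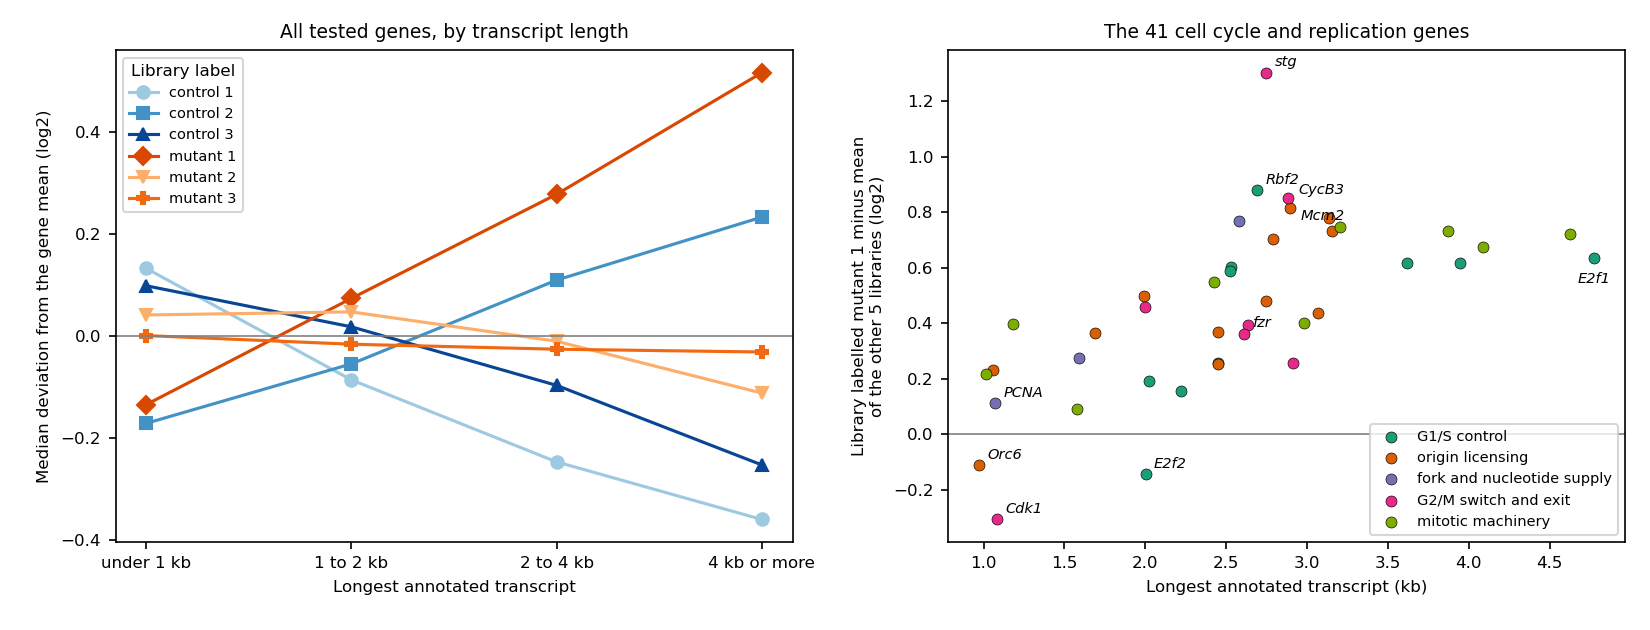
Left, median deviation from the gene mean in each library over all tested genes in 4 classes of transcript length. Right, for each of the 41 genes, log2(TPM + 1) in mutant replicate 1 minus the mean of the other 5 libraries against transcript length in kb, colored by role; *stg* lies highest at 1.30 and *Cdk1* lowest at -0.31.

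A correction for length, chosen after seeing the data, removed the trend over all tested genes and left the cell cycle genes about as far above the other genes in mutant replicate 1 as before. After it, mutant replicate 1 was still the highest library for 23 of the 41 genes (56.1%), against 26.8% of all tested genes. The difference of mutant replicate 1 from the mean of the other 5 libraries had a median of 0.20 on the log2 scale over the 41 genes, against -0.0040 over all tested genes. Before the correction these medians were 0.46 and 0.23. The corrected difference was above 0 in 32 of them (78.0%, against 49.5%). It was largest for *stg* (0.98, exceeded by 1.15% of all tested genes), *Rbf2* (0.56), *CycB3* (0.51), *Mcm2* (0.47) and *RnrL* (0.46), and lowest for *E2f2* (-0.35) and *Cdk1* (-0.28).

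Summed levels of marker lists also differed, some with mutant replicate 1 and some with the label. The sums of 5 trachea markers did not overlap, at 340.52 to 407.87 TPM in the controls and 451.85 to 591.62 TPM in the mutant libraries. The highest was in mutant replicate 1 (most abundant gene *verm*, at 188.42 to 294.8 TPM). The 9 haemocyte markers, of which 3 were under 1 TPM in every library and none was at 0 throughout, summed to 2.63 to 13.4 TPM and 4.73 to 18.96 TPM, the maximum again in mutant replicate 1. The wing disc marker sums were highest in control replicate 2 and mutant replicate 1, as were those of the cell cycle genes. Of the 8 fat body markers 3 were under 1 TPM in every library and none was at 0 throughout. They summed to 10.43 to 17.55 TPM under the control label (most abundant gene *Tsf1*, at 3.74 to 10.14 TPM over all libraries). Under the mutant label the sums were mostly lower, at 6.79 to 11.04 TPM, with mutant replicate 1 the highest of them and above control replicate 3. The 9 damage response genes, led by *rpr*, summed to 269.71 to 293.71 and 303 to 329.55 TPM, without overlap and highest in mutant replicate 2. The 8 muscle markers summed to 102.39 to 119.06 and 119.17 to 131.37 TPM, also without overlap. No gene of the marker lists for wing disc, haemocytes, fat body, muscle, trachea, neural cells or damage response was called (0.224% of all tested genes were). Without overlap, 3 of 5 tested fat body genes were lower (2.56% of all tested genes were). Higher were 3 of 5 trachea genes, 1 neural and 1 damage response gene (7.9% of all tested genes were). In the fat body and trachea lists 2 genes each had an unadjusted limma p under 0.05 (4.82% of all tested genes did). The 5 testis germline markers stayed under 1 TPM. The part of these differences in the result was not tested.

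With length corrected, 3 of the 41 genes had an unadjusted p under 0.05 in limma (6.65% of all tested genes did) and none was called (0.437% of all tested genes were). *Mcm7* (log2 difference -0.26, adjusted p = 0.529) and *Orc6* (-0.25, adjusted p = 0.688) were on the lower side and *fzr* (0.23, adjusted p = 0.599) on the higher. The median of the 41 genes was -0.06, with -0.15 for origin licensing and -0.12 for the fork genes.

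Setting aside mutant replicate 1 changed which genes overlapped. With the control libraries against mutant replicates 2 and 3, 12 of the 41 genes were below every control (29.3%, against 7.05% of all tested genes) and 1, *fzr*, was above every control (against 13.0% of all tested genes). The 12 were *dap*, *Dp*, *Orc2*, *dup*, *Mcm2*, *Mcm5*, *Mcm6*, *Mcm7*, *PCNA*, *RnrS*, *RnrL* and *stg*. Taking origin licensing and fork genes together, a grouping made after their values were seen, 9 of 15 were below every control, against 3 of the other 26.

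The sizes were small. Without mutant replicate 1 the median log2 difference was -0.13 over the 41 genes and -0.25 over the 15 replication genes, against 0.05 over all tested genes. Of the 15 replication genes 14 were below 0 (93.3%, against 36.8% of all tested genes). *geminin* was the replication gene above 0, at 0.03. The differences of the 12 genes ran from -0.44 (*stg*) to -0.14 (*Dp*), *stg* alone had an unadjusted p under 0.05 (6.21% of all tested genes did), and none was called (0.439% were), with the smallest limma adjusted p at 0.588. With control replicate 2 left out as well, a choice also made after seeing the data, 16 genes were below and 8 above every control (18.8% and 44.1% of all tested genes were), 10 of the 15 replication genes were below, and again none was called, against 2.12% of all tested genes (smallest limma adjusted p 0.0689, that of *fzr*).

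Beyond the 41 genes, 132 other cell cycle genes were matched by symbol and 127 were tested. None of these was called (0.224% of all tested genes were), and the unadjusted limma p was under 0.05 for 1 (4.82% of all tested genes). Their median log2 difference was 0.11, from -0.40 to 0.56, with 103 above 0 and 24 below (25.1% of all tested genes were below). Mutant replicate 1 was the highest library for 98 of them (77.2%), nearly the share seen for the 41 genes. Its median deviation was largest among the 12 cohesin and condensin genes, at 0.62, which hold and compact chromosomes, and was 0.26 among the 30 replication factors. With length corrected the same values were 0.26 and 0.15. Without mutant replicate 1, 11 of the 127 were below every control and 4 above (7.05% and 13.0% of all tested genes were). Of the 30 replication factors 5 were below and 1 above. Their median log2 difference was then -0.10, and that of the 127 genes -0.05.

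The gene with the low p was *Psf3*, a subunit of the GINS complex that joins the Mcm helicase at active forks. Its levels were 25.5, 24.78 and 26.18 TPM under the control label and 21.23, 17.99 and 18.29 TPM under the mutant label. All mutant libraries, replicate 1 included, lay below all controls (log2 difference -0.40, standard error 0.14, limma unadjusted p = 0.0187, adjusted p = 0.758). *Nuf2*, a kinetochore gene, was also lower without overlap (41.97 to 48.41 TPM against 39.69 to 41.8 TPM). *Cdc16*, a subunit of the anaphase-promoting complex that Fzr activates, was higher without overlap (27.95 to 34.8 TPM against 34.85 to 39.25 TPM). Among the 127 tested, 1 gene was higher and 2 were lower without overlap, against 7.9% and 2.56% of all tested genes. Neither *Nuf2* nor *Cdc16* passed a test (log2 differences -0.15 and 0.21, limma adjusted p = 0.818 for both). Both were named after their values were seen.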

How the data were processed

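RNA-seq was analysed from 6 wing disc libraries, 3 per label. Per the study's methods, the authors selected poly-A RNA, aligned reads to dm6 with STAR 2.4.0j and quantified the FlyBase annotation with RSEM 1.2.21, and they deposited TPM per gene for each library. TPM hold no depth and the study's mapped read totals were not used, so no count test or counting interval was possible. RSEM shares reads among similar genes. Strand use is not given in the sources used here.

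Genes that reached 1 TPM in any library were fitted with limma 3.58.1 (R 4.3.3) on log2(TPM + 1), with label as the only term, after a test on simulated data. The thresholds and filter follow the study, whose undamaged discs were not used here. Gene models gave transcript lengths and names for 16402 of 16455 identifiers. The length correction subtracted, per library, a lowess curve (span 0.3) of the deviation on log2 length. Of 139 other cell cycle symbols, 132 matched. Plots used matplotlib 3.10.9 and pandas 2.3.3.

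The 41 genes, the other lists and the tests were chosen with earlier results of these data known. Named were all 41, of the other cell cycle genes those called or, with fewer than 6 called, the 3 largest in each direction at an unadjusted p under 0.05, and *CR40469*, its copy and *rpr*. *Nuf2* and *Cdc16* fall outside this rule, being picked once their values were known. Alternatives were pseudocounts of 0.1 and 0.5, other filters, median-ratio scaling, a replicate block, a mean-variance trend and leaving out each library. Promoter motifs were planned and were not analysed here.

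Same-numbered libraries did not deviate together (correlations of -0.03, -0.35 and 0.16 for replicates 1, 2 and 3), so the numbers were not taken as pairs.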

Additional observations from a re-analysis of the deposited data

How the results depend on the processing

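None of the 41 genes and none of the other cell cycle genes was called under any alternative run. Without control replicate 2 and mutant replicate 1, *Psf3* passed the adjusted p threshold but not that of fold change. The number of the 41 at an unadjusted p under 0.05, 1 as reported, was 0 with median-ratio scaling, 0 with the replicate block, 3 with length correction (7.32%, against 6.65% of all tested genes), 6 without control replicate 2 and mutant replicate 1 (14.6%, against 24.9%), and 0 to 3 with single libraries left out. The number without overlap, 1 as reported, was 3 with median-ratio scaling (7.32%, against 8.34% of all tested genes), 4 with length correction (9.76%, against 11.6%), 24 without those 2 libraries (58.5%, against 62.8%) and 1 to 13 with single libraries left out. The number with an interval within 1.7-fold, 37 as reported, was 25 without a filter (61.0%, against 82.6%) and 24 to 40 with single libraries left out. The cause of these moves was not tested. The median log2 difference of the 41 genes was between -0.13, without mutant replicate 1, and 0.19, without mutant replicate 2. Signs of single genes differed from those reported for 20 genes without mutant replicate 1, 18 with median-ratio scaling and 21 with length correction, and for none with another pseudocount, filter, trend or the replicate block. The TPM tables hold no depth, and precision rests on 3 libraries per label.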
